A study of Mus musculus with 12 samples.

Results

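The genes of the proteasome were followed through 12 RNA-seq libraries of mast cells grown from BALB/c mouse bone marrow (BMMCs). The genes were those that the table of isoforms marks with the KEGG proteasome pathway and whose symbol begins with Psm or is Pomp. This gave 43 genes with 230 isoforms, out of 46 genes marked with the pathway and 28852 genes in all. The remaining 3 marked genes were Adrm1 and Sem1, which encode subunits named otherwise, and Ifng, the interferon gamma gene. The cells were treated with silica nanoparticles (the SiO2 group), with the antigen DNP-HSA together with silica (DNP-HSA+SiO2) or with DNP-HSA alone (DNP-HSA), or were left as a blank control (blank), with 3 libraries in each of the 4 groups. All cells were cultured in medium with the growth factors IL-3 and SCF, and the dose, the time of treatment and whether the sequenced cells carried anti-DNP IgE are not given in the sources used here. In each group 1 library has no number in its title and the others are numbered 1 and 2. They are called unnumbered, 1 and 2, and the values of a group are given in that order. Separate cultures are not stated for the libraries of a group, so that a p-value here measures the spread from library to library, which may be technical.

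The proteasome is the protease complex that degrades proteins tagged with ubiquitin in the cytosol and nucleus. Its barrel-shaped core is built of rings of alpha subunits, which gate the entry, around rings of beta subunits, 3 of which (beta 1, beta 2 and beta 5) cut peptide bonds. A regulatory cap holds a base, whose ATPases unfold the substrate, and a lid, which removes the ubiquitin chain. In cells exposed to interferon, and constitutively in many blood cells, the catalytic subunits are exchanged for the immunoproteasome subunits encoded by Psmb8, Psmb9 and Psmb10, which favour peptides that bind MHC class I molecules.

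Levels are FPKM summed over a gene's isoforms, which are scaled to gene length and library but not between groups. By mean level over the 12 libraries, the alpha ring (7 genes) ran from Psma2 at 25.8 FPKM to Psma1 at 91.9 FPKM. The structural beta subunits (4 genes) ran from Psmb1 at 44.6 to Psmb4 at 78.8 FPKM, and the constitutive catalytic subunits (3 genes) from Psmb5 at 35.2 to Psmb6 at 61.2 FPKM. Among the immunoproteasome subunits (3 genes), Psmb8 had the highest mean, 35.5 FPKM, followed by Psmb9 at 18.0 and Psmb10 at 11.0 FPKM. Transcripts of both kinds of catalytic subunit were present in every library. The base ATPases (6 genes) ran from Psmc2 at 33.3 to Psmc3 at 56.9 FPKM, the other base subunits (3 genes) from Psmd1 at 31.5 to Psmd4, a ubiquitin receptor, at 66.3 FPKM, and the lid (8 genes) from Psmd12 at 21.5 to Psmd8 at 70.3 FPKM. Of the activators that cap the core in place of the regulatory cap (5 genes), Psme3 was at 44.8 and Psme2b at 18.1 FPKM. Psmf1, which encodes an inhibitor of the proteasome, was at 7.61 FPKM, and Pomp, which encodes the chaperone that joins the parts of the nascent core, was at 23.2 FPKM. The 2 members with tissue-restricted roles were near 0. Psma8, the alpha subunit of the testis, reached at most 0.63 FPKM and Psmb11, the catalytic subunit of the thymic cortex, at most 0.02 FPKM. These were not tested, and the other 41 members, with 1 FPKM or more in 3 or more of the libraries, were.

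The 12 libraries held 55737606 to 76718065 estimated counts, of which the 43 members took 0.239% to 0.367%. The libraries differed by the number in their titles: 3224 of the 12862 genes tested were called between the unnumbered and the numbered libraries, against 0 to 74 genes in a comparison of treatments. These tests are unlike and their counts do not measure relative size. The first sets 4 libraries against 8 with treatment as a term, the others 3 against 3 with no term for the number. Of 10 mast cell markers, Kit, Fcer1a and Cpa3 were high in all 12 libraries, with Cpa3, the mast cell carboxypeptidase gene, at 7353 to 9207 FPKM. The list summed to 17461 to 19788 FPKM in the unnumbered and 21244 to 27904 FPKM in the numbered libraries, and 4 of its genes were called between them. Mcpt4 and Hdc rose in the unnumbered libraries, and Cma1 and Gata2 fell, Cma1 to a mean of 3961 FPKM against 9192 FPKM. Of 4 basophil markers Mcpt8, a protease gene, rose (20.7 to 24.3 FPKM against 0.774 to 5.32 FPKM) and Cebpa fell. Of 9 markers of macrophages and neutrophils, 8 were tested, and their summed level was 8.64 to 9.84 FPKM in the 4 unnumbered libraries and 19.0 to 119.6 FPKM in the 8 numbered libraries. Lyz2 and Csf1r fell in the unnumbered libraries, while Adgre1, a macrophage surface gene, rose (3.94 to 5.56 FPKM against 0.542 to 2.61 FPKM). S100a9 and Elane, from the same list, were listed at 0 in all 4 unnumbered libraries and also in SiO2 2, DNP-HSA+SiO2 1, DNP-HSA 1 and blank 2. S100a8 was listed at 0 to 0.294 FPKM in these 8 libraries and at 5.89 to 7.19 FPKM in the remaining 4. Other listed markers were not at 0 in the unnumbered libraries, with Mpo at 0.264 to 0.740 FPKM and Ly6g at 0.486 to 0.728 FPKM. In SiO2 2, DNP-HSA+SiO2 1, DNP-HSA 1 and blank 2, Mpo was at 0 to 0.018 FPKM. The part of these genes' cells in the proteasome values was not tested. The 8 numbered libraries also differed among themselves. The summed FPKM of the proteasome genes was 1941 in SiO2 1, 1714 in DNP-HSA+SiO2 2, 1770 in DNP-HSA 2 and 1917 in blank 1. It was 1474 in SiO2 2, 1379 in DNP-HSA+SiO2 1, 1456 in DNP-HSA 1 and 1492 in blank 2, so that the number with the larger sum was 1 in the SiO2 and blank groups and 2 in both groups with DNP-HSA. In the 4 numbered libraries with the smaller sums, the share of counts from mitochondrial transcripts was 4.24% to 6.06% and that of protein-coding isoforms in the members' FPKM was 81.0% to 85.6%. In the 4 with the larger sums these shares were 2.83% to 3.78% and 89.0% to 91.0%. Their part in the sums was not tested. Some members, singled out after their values were seen, ran the other way. The activator gene Psme4 was at 12.8 to 15.4 FPKM in the 4 numbered libraries with the larger sums. It was at 23.1 to 26.1 FPKM in the 4 with the smaller sums. The ATPase gene Psmc6 was at 27.5 to 32.0 FPKM against 37.4 to 41.3 FPKM in the same order. Psmd6, a lid gene, was lower in the library with the larger sum in each group. Its ranges were 31.1 to 37.5 FPKM against 35.8 to 47.0 FPKM. Because these are bulk samples, fewer cells of a type and less RNA per cell cannot be told apart in any level given here.

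**Figure D1:**
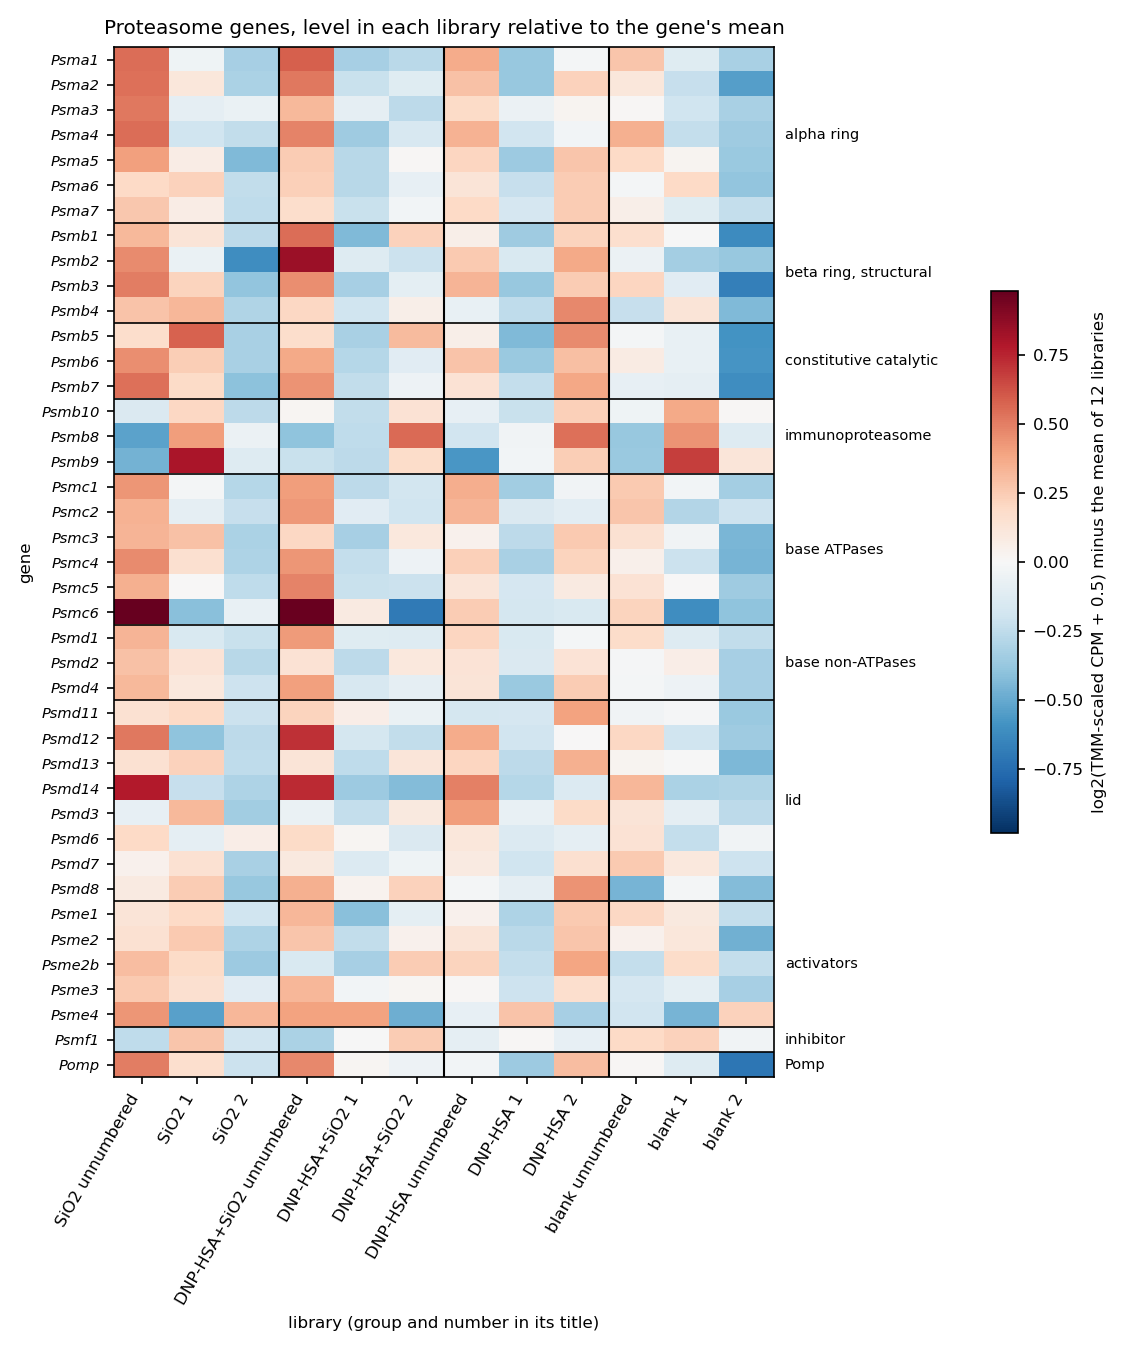
Level of each of the 41 tested proteasome genes (rows, by role) in each of the 12 libraries (columns, by group and number), as log2 of the TMM-scaled CPM plus 0.5, minus the gene's mean over the libraries. The unnumbered columns are mostly red for subunits of the standard proteasome and blue for Psmb8 and Psmb9, and the median over the 41 genes is 0.06 to 0.33 in the unnumbered columns and -0.35 to 0.24 in the numbered columns.

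For the comparisons between treatments, counts were summed per gene and fitted in edgeR (quasi-likelihood, TMM scaling) with all 12 libraries together, and p-values were adjusted by the Benjamini-Hochberg method over the 12862 genes. A gene was called at an adjusted p under 0.05. No proteasome gene was called in SiO2 against blank, where 0.0622% of all genes were, in DNP-HSA+SiO2 against blank (0.575% of all genes), in DNP-HSA against blank (0.218%) or in DNP-HSA+SiO2 against DNP-HSA (0%). In the test of whether the effect of SiO2 differed with DNP-HSA, the interaction of SiO2 and DNP-HSA, 0.0233% of all genes and no member were called. DESeq2 and limma also called 0 members in each of these 5 tests. At an unadjusted p under 0.05, edgeR gave 0 members in SiO2 against blank (8.03% of all genes), 1 in DNP-HSA+SiO2 against blank (12%), and 0 in DNP-HSA against blank (7.38%), in DNP-HSA+SiO2 against DNP-HSA (0.645%) and in the interaction (2.08%). The smallest adjusted p of any member was 0.724 in SiO2 against blank, 0.393 in DNP-HSA+SiO2 against blank and 0.784 in DNP-HSA against blank.

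The log2 change of the 41 members ran from -0.18 to 0.52 in SiO2 against blank, from -0.30 to 0.50 in DNP-HSA+SiO2 against blank, from -0.29 to 0.43 in DNP-HSA against blank and from -0.25 to 0.29 in DNP-HSA+SiO2 against DNP-HSA. The median standard error of a member's log2 change was 0.247 in these comparisons. The median log2 change was 0.16 in SiO2 against blank, with 36 of 41 members above 0, where the median of all genes was -0.01. It was 0.13 in DNP-HSA+SiO2 against blank (36 of 41, all genes -0.01) and 0.15 in DNP-HSA against blank (35 of 41, all genes 0.01). These 3 comparisons share the blank libraries and are not independent of each other. In DNP-HSA+SiO2 against DNP-HSA the median was 0.00 (21 of 41, all genes -0.01), and for the interaction it was -0.17 (4 of 41 above 0, all genes -0.00). These medians moved when single libraries were left out. In SiO2 against blank the median was 0.069 without the unnumbered SiO2 library (26 of 41 above 0), 0.074 without blank 2 (25 of 41), 0.31 without SiO2 2, 0.26 without the unnumbered blank library and 0.25 without blank 1. In DNP-HSA+SiO2 against blank it was 0.012 without the unnumbered DNP-HSA+SiO2 library and 0.017 without blank 2 (22 of 41 in each), 0.24 without DNP-HSA+SiO2 1, 0.23 without DNP-HSA+SiO2 2 and 0.26 without the unnumbered blank library. In DNP-HSA against blank it was 0.052 without blank 2 (25 of 41), 0.080 without DNP-HSA 2 (30 of 41), 0.27 without DNP-HSA 1 and 0.24 without the unnumbered blank library. In DNP-HSA+SiO2 against DNP-HSA it turned to -0.16 without the unnumbered DNP-HSA+SiO2 library and -0.12 without DNP-HSA 1. The interaction's median was -0.34 without SiO2 2, -0.33 without the unnumbered DNP-HSA+SiO2 library, -0.30 without DNP-HSA 1 and -0.26 without the unnumbered blank library. It was -0.10 without DNP-HSA 2, -0.080 without DNP-HSA+SiO2 1, -0.078 without blank 2 and -0.078 without the unnumbered SiO2 library. The sign of the medians against blank also depends on the scaling. With libraries scaled to their totals instead of by TMM, the median was -0.11 in SiO2 against blank, -0.24 in DNP-HSA+SiO2 against blank and -0.11 in DNP-HSA against blank, while the median of all genes was -0.27, -0.35 and -0.25 in the same order. Relative to the median of all genes the members' median was 0.17, 0.14 and 0.14 with TMM and 0.16, 0.11 and 0.13 with library totals. The interaction's median was -0.00 with library totals (20 of 41 above 0), where the median of all genes was 0.17, and -0.02 with limma on log2(FPKM + 1) (19 of 41). Without the 4 unnumbered libraries 0 members were again called in the 5 tests, and the median was 0.10 in SiO2 against blank, 0.07 in DNP-HSA+SiO2 against blank, 0.20 in DNP-HSA against blank and -0.12 in DNP-HSA+SiO2 against DNP-HSA.

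Among the roles with several genes, the highest medians were those of the constitutive catalytic subunits, at 0.40 in SiO2 against blank, 0.29 in DNP-HSA+SiO2 against blank and 0.28 in DNP-HSA against blank. The structural beta subunits followed at 0.27, 0.24 and 0.25 in the same order. The immunoproteasome subunits had medians of -0.03, -0.15 and -0.14. The remaining groups of subunits and the activators lay between 0.08 and 0.18. None of these was called, and they are descriptions.

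**Figure D2:**
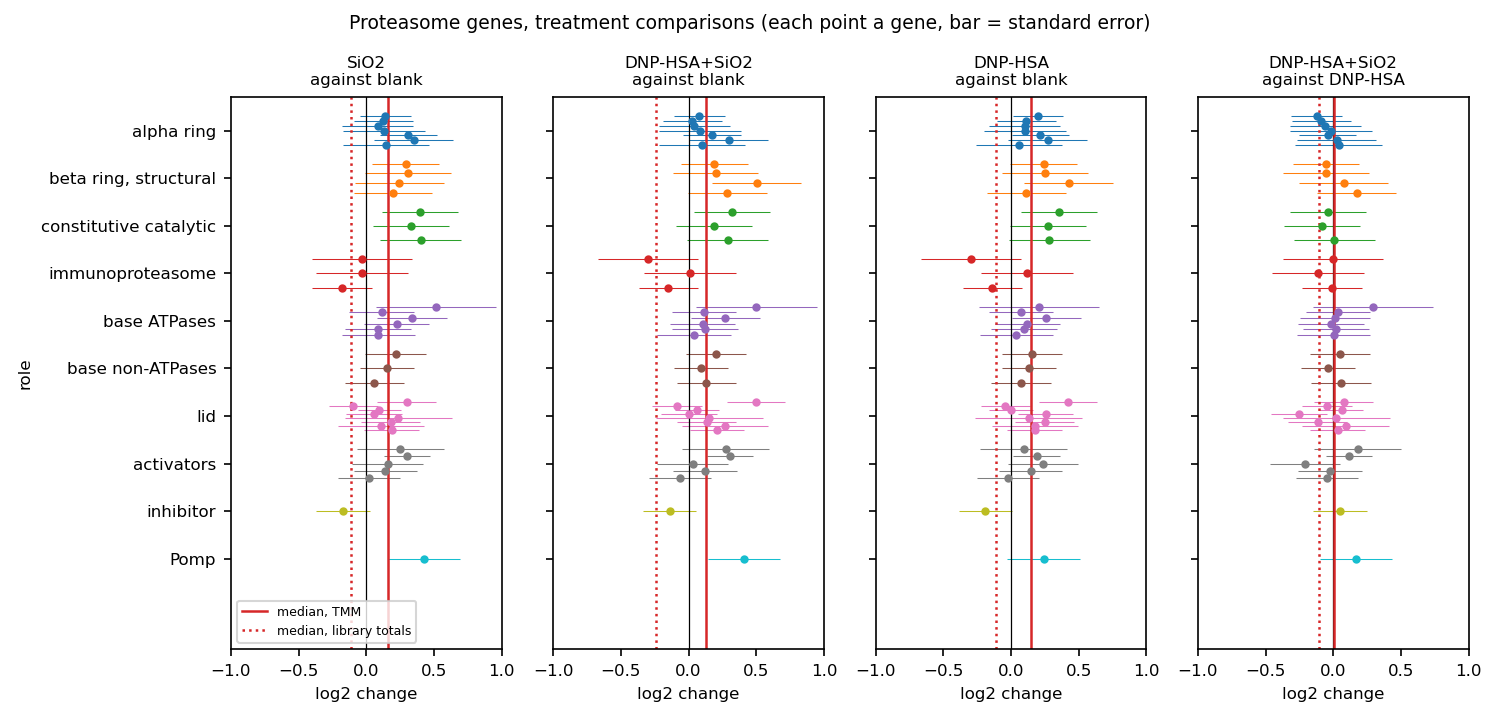
Log2 change of each tested proteasome gene (points, bars are standard errors) by role, in SiO2, DNP-HSA+SiO2 and DNP-HSA each against blank and in DNP-HSA+SiO2 against DNP-HSA. The solid red line is the median of the 41 members with TMM scaling and the dotted line that with library totals, which lies below 0 in the 3 comparisons with blank.

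Psmd8, a lid subunit, had the smallest p in DNP-HSA+SiO2 against blank. It was at 76.2, 67.9 and 82.0 FPKM in the DNP-HSA+SiO2 libraries, at 76.6, 64.9 and 81.7 FPKM in the DNP-HSA libraries and at 59.2, 75.4 and 53.2 FPKM in the blank libraries. The groups overlap, since blank 1 lies above DNP-HSA+SiO2 1 and DNP-HSA 1. Of the numbered libraries the higher one was number 2 in both groups with DNP-HSA and number 1 in blank. The log2 change was 0.50 (standard error 0.217, unadjusted p = 0.0427, adjusted p = 0.393 from edgeR) in DNP-HSA+SiO2 against blank and 0.42 (standard error 0.217, adjusted p = 0.784) in DNP-HSA against blank. In SiO2 it was at 69.2, 82.2 and 55.3 FPKM. The isoforms assigned to Psmd8 differed between the blank libraries. The isoform ENSMUST00000182328 was at 26.5 to 48.7 FPKM in the 10 libraries other than blank 1 and 2, where it was at 13.2 and 0.68 FPKM. ENSMUST00000059642 was at 1.42 to 5.04 FPKM in these 10 libraries and at 20.3 and 33.5 FPKM in blank 1 and 2.

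The other large values were no more uniform. Psmc6, an ATPase of the base, was at 67.6, 30.5 and 41.3 FPKM in SiO2, 67.0, 39.7 and 27.5 FPKM in DNP-HSA+SiO2, 48.8, 37.6 and 32.0 FPKM in DNP-HSA and 58.7, 30.0 and 37.4 FPKM in blank. In each group the unnumbered library was the highest, and the groups overlap. The log2 change was 0.52 (standard error 0.445, adjusted p = 0.869) in SiO2 against blank, 0.50 (standard error 0.445, adjusted p = 0.802) in DNP-HSA+SiO2 against blank and 0.29 (standard error 0.445) in DNP-HSA+SiO2 against DNP-HSA. Psmb2, a structural beta subunit, was at 81.7, 48.1 and 50.9 FPKM in DNP-HSA+SiO2, 77.2, 49.7 and 65.8 FPKM in DNP-HSA and 65.8, 51.8 and 49.1 FPKM in blank. Its log2 change was 0.50 (standard error 0.329, adjusted p = 0.648) in DNP-HSA+SiO2 against blank and 0.43 (standard error 0.328) in DNP-HSA against blank, with overlapping groups. Its level in SiO2 was 67.2, 55.6 and 37.7 FPKM. Pomp was at 29.7, 27.6 and 19.1 FPKM in SiO2 and at 29.2, 24.7 and 15.0 FPKM in blank, a log2 change of 0.43 (adjusted p = 0.761, standard error 0.267), and each SiO2 library was above the blank library of the same number. Of the pair of genes with the largest negative values in DNP-HSA+SiO2 against DNP-HSA, Psmd3, a lid subunit, was at 23.0, 23.3 and 32.9 FPKM in DNP-HSA+SiO2 and at 42.6, 28.1 and 31.1 FPKM in DNP-HSA (log2 change -0.25, standard error 0.206). Psme2b was at 12.8, 12.9 and 21.7 FPKM in DNP-HSA+SiO2 and at 21.8, 14.7 and 20.9 FPKM in DNP-HSA (log2 change -0.21, standard error 0.261). Psme2b is a near copy of Psme2, an activator subunit induced by interferon: the transcripts of 837 and 962 bases shared 789 of 794 aligned bases, or 99.4%, so that the reads of the copies could have been split between them and both levels are uncertain.

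Members at the ends of their roles that were not called in any test showed the same spread within groups. Psmc3, an ATPase, was at 57.7, 80.3 and 53.2 FPKM in SiO2, 49.0, 40.1 and 65.6 in DNP-HSA+SiO2, 55.9, 44.5 and 56.8 in DNP-HSA and 74.9, 60.4 and 44.2 FPKM in blank. Its isoform ENSMUST00000185715 was at 41.7 FPKM in SiO2 1, 27.7 in SiO2 2, 22.3 in DNP-HSA+SiO2 2 and 17.6 FPKM in the unnumbered blank library, and at 2.94 to 5.69 FPKM in the other libraries. Psmd4 was at 70.7, 75.1 and 56.2 FPKM in SiO2, 70.2, 53.5 and 62.3 in DNP-HSA+SiO2, 75.8, 48.4 and 71.2 in DNP-HSA and 80.1, 75.2 and 57.3 FPKM in blank. The range within a group was as wide for the structural beta subunits. Psmb4 was at 83.0, 99.0 and 66.2 FPKM in SiO2, 72.1, 63.8 and 82.4 in DNP-HSA+SiO2, 78.2, 64.3 and 95.8 in DNP-HSA and 80.8, 97.0 and 63.4 FPKM in blank. Psmb1 was at 47.3, 49.4 and 36.1 FPKM in SiO2, 51.0, 29.7 and 52.0 in DNP-HSA+SiO2, 48.2, 33.6 and 46.0 in DNP-HSA and 60.2, 50.7 and 31.6 FPKM in blank. The activator Psme3, a nuclear cap of the core, varied less, at 47.6, 51.8 and 41.4 FPKM in SiO2, 45.3, 39.9 and 45.9 in DNP-HSA+SiO2, 47.7, 38.2 and 44.5 in DNP-HSA and 48.2, 47.4 and 39.8 FPKM in blank. The inhibitor Psmf1 was at 5.70, 9.89 and 7.01 FPKM in SiO2, 4.63, 6.51 and 8.57 in DNP-HSA+SiO2, 7.00, 7.71 and 6.04 in DNP-HSA and 9.80, 9.80 and 8.69 FPKM in blank, with log2 changes of -0.17, -0.14 and -0.19 against blank in the order of SiO2, DNP-HSA+SiO2 and DNP-HSA.

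Same-numbered SiO2 and blank libraries deviated together from their group means, as did same-numbered DNP-HSA+SiO2 and DNP-HSA libraries, so that a fit with a replicate block within these pairs was also made. It called 0 members in SiO2 against blank. At an unadjusted p under 0.05 it gave 7 members in place of 0, all higher in SiO2, where 8.5% of all genes were past that threshold and higher. Their log2 changes were 0.43 for Pomp, 0.38 for Psmb5, 0.33 for Psma2, 0.32 for Psmc4 and for Psmb6, 0.31 for Psmb3 and 0.30 for Psme3, each with an adjusted p of 0.332 from edgeR.

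The catalytic subunits were then compared as pairs, since each immunoproteasome subunit takes the place of one constitutive subunit: Psmb8 of Psmb5 (beta 5), Psmb9 of Psmb6 (beta 1) and Psmb10 of Psmb7 (beta 2). Psmb5 was at 33.6, 52.9 and 27.7 FPKM in SiO2, 31.0, 25.2 and 43.5 in DNP-HSA+SiO2, 38.0, 24.3 and 43.3 in DNP-HSA and 40.6, 37.3 and 24.8 FPKM in blank. Psmb8 was at 20.2, 45.7 and 32.6 FPKM in SiO2, 20.6, 26.0 and 49.8 in DNP-HSA+SiO2, 30.2, 33.5 and 44.3 in DNP-HSA and 31.7, 54.6 and 37.1 FPKM in blank. In every group the unnumbered library had the lowest Psmb8. Psmb6 was at 71.4, 73.5 and 48.5 FPKM in SiO2, 62.4, 45.3 and 57.1 in DNP-HSA+SiO2, 77.1, 45.2 and 66.0 in DNP-HSA and 77.0, 66.4 and 44.1 FPKM in blank. Psmb9 was at 10.6, 31.1 and 14.8 FPKM in SiO2, 11.7, 13.8 and 20.2 in DNP-HSA+SiO2, 11.6, 16.5 and 18.9 in DNP-HSA and 15.6, 31.4 and 19.5 FPKM in blank. It too was lowest in the unnumbered library of each group, while Psmb6 was not. Psmb7 was at 64.3, 59.2 and 39.0 FPKM in SiO2, 56.7, 39.8 and 50.4 in DNP-HSA+SiO2, 59.6, 42.5 and 59.6 in DNP-HSA and 59.4, 55.9 and 36.3 FPKM in blank. Psmb10 was at 8.54, 12.7 and 9.37 FPKM in SiO2, 8.80, 8.64 and 11.9 in DNP-HSA+SiO2, 10.7, 9.14 and 11.2 in DNP-HSA and 12.6, 16.0 and 12.3 FPKM in blank.

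The share of the immunoproteasome subunit in each pair's summed FPKM is a ratio within a library and does not depend on the scaling between libraries. Psmb8 made up 46.0% ± 8.26 of Psmb8 and Psmb5 in SiO2, 48.0% ± 7.12 in DNP-HSA+SiO2, 50.9% ± 6.91 in DNP-HSA and 54.4% ± 9.14 in blank (SD, n = 3 each). Against blank the exact two-sided permutation test gave p = 0.3 for SiO2, 0.5 for DNP-HSA+SiO2 and 0.6 for DNP-HSA. The Psmb9 share was 22.0% ± 8.48 in SiO2, 21.7% ± 5.35 in DNP-HSA+SiO2, 20.7% ± 6.96 in DNP-HSA and 26.5% ± 8.46 in blank, with an exact p of 0.5 in each comparison with blank. The Psmb10 share was 16.3% ± 4.02 in SiO2, 16.8% ± 2.97 in DNP-HSA+SiO2, 16.2% ± 1.29 in DNP-HSA and 21.6% ± 3.91 in blank, with an exact p of 0.3 for SiO2, 0.3 for DNP-HSA+SiO2 and 0.2 for DNP-HSA. None of the 9 differences from blank passed the test, and with 3 libraries against 3 the smallest p it can give is 0.1. The test does not pair libraries by number. Each of the 3 shares was lower in every SiO2 library than in the blank library of the same number. For Psmb8 these were 37.6%, 46.4% and 54.1% in SiO2 against 43.9%, 59.4% and 60.0% in blank. Between DNP-HSA+SiO2 and DNP-HSA libraries of the same number, no share kept a single direction. No paired test of the shares was made. In DNP-HSA+SiO2 against DNP-HSA the exact p was 0.7 for Psmb8, 0.8 for Psmb9 and 0.8 for Psmb10. Over the 15 share tests, these 3 and the 9 against blank had adjusted p-values of 0.643 to 0.8.

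The comparison of the 4 unnumbered with the 8 numbered libraries, with treatment as a term, is one of labels, since nothing states what a number marks. Unnumbered libraries of different groups deviated together across genes, at r = 0.462 to 0.675 in the pairs of groups checked. The p-values of this comparison may therefore treat them as more independent than they are. Of the 41 tested members, 14 rose in the unnumbered libraries, where 12.1% of all genes did, and 2 fell, where 12.9% of all genes did (edgeR, adjusted p under 0.05). The median log2 change was 0.26, with 36 of 41 members above 0, against 0.01 for all genes. The members that rose were subunits of the standard proteasome: 4 of 7 alpha subunits, 2 of 4 structural beta subunits, 5 of 6 base ATPases, 1 of 3 other base subunits and 2 of 8 lid subunits. None of the 3 constitutive catalytic subunits was called (1 at an unadjusted p under 0.05, as were 37.8% of all genes), nor any of the 5 activators (0), and the 2 that fell were the immunoproteasome genes Psmb8 and Psmb9. The number that rose was 8 without the unnumbered SiO2 library and 8 without the unnumbered DNP-HSA+SiO2 library. The number that fell was 0 without the unnumbered SiO2, DNP-HSA or blank library or without SiO2 1, DNP-HSA+SiO2 2, DNP-HSA 2 or blank 1, and 1 without the unnumbered DNP-HSA+SiO2 library or SiO2 2.

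Psmd14, the lid's deubiquitinase that cuts the ubiquitin chain from the substrate, was at 53.3, 43.2, 53.2 and 49.3 FPKM in the unnumbered SiO2, DNP-HSA+SiO2, DNP-HSA and blank libraries. In the 8 numbered libraries it was at 23.3 to 31.8 FPKM (median 28.2). The mean was 49.7 ± 4.77 FPKM (SD, n = 4) against 27.8 ± 2.96 FPKM (SD, n = 8), the ranges do not overlap, and the log2 change was 0.89 (adjusted p = 0.000208 from edgeR, standard error 0.100). Psmd14 lies at chr2:61711694-61800376 on the plus strand of GRCm38. The other lid gene that rose, Psmd12, was at 26.1, 27.5, 28.6 and 29.5 FPKM in the unnumbered libraries, in the same order of groups, against 16.6 to 21.3 FPKM (median 18.1) in the numbered libraries (log2 change 0.68, standard error 0.106, adjusted p = 0.00136). Again every unnumbered library was above every numbered one.

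In the alpha ring, Psma1 was at 114, 108, 122 and 132 FPKM in the unnumbered libraries against 65.7 to 95.6 FPKM (median 77.6) in the numbered libraries (adjusted p = 0.00201, log2 change 0.67, standard error 0.111). Psma4 was at 55.6, 49.1, 57.9 and 70.3 FPKM against 32.0 to 43.6 FPKM (median 38.5), where the adjusted p was 0.000662 and the log2 change 0.66 (standard error 0.0896). Both sets of values are apart. Psma2 was at 32.0, 29.3, 32.7 and 33.4 FPKM against 19.0 to 28.2 FPKM (median 22.3, log2 change 0.54, adjusted p = 0.0172). Psma3 was at 32.6, 23.3, 30.5 and 32.0 FPKM against 21.3 to 28.3 FPKM (median 24.3, log2 change 0.39, adjusted p = 0.0125), where the DNP-HSA+SiO2 library lies within the range of the numbered libraries. Of the structural beta subunits, Psmb2 was at 67.2, 81.7, 77.2 and 65.8 FPKM against 37.7 to 65.8 FPKM (median 50.3, log2 change 0.57, adjusted p = 0.0326) and Psmb3 at 86.9, 78.3, 94.9 and 100.4 FPKM against 44.8 to 85.0 FPKM (median 59.5, log2 change 0.55, adjusted p = 0.0341), with ranges that meet or overlap. The call was lost in 7 of 20 alternative fits for Psmb2 and 13 for Psmb3, and in the alpha ring in 4 for Psma2 and 5 for Psma3.

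Of the 6 ATPases that pull the substrate into the core 5 rose, and Psmc3 was not called (log2 change 0.26, adjusted p = 0.269). Psmc6 was at 67.6, 67.0, 48.8 and 58.7 FPKM in the unnumbered libraries against 27.5 to 41.3 FPKM (median 34.7) in the numbered libraries, with an adjusted p of 0.00439 and a change of 0.91 on the log2 scale (standard error 0.175). Psmc2 was at 36.1, 35.5, 43.7 and 48.7 FPKM against 27.3 to 32.0 FPKM (median 29.0, log2 change 0.52, standard error 0.0771, adjusted p = 0.00111). Both ATPases were higher in each unnumbered library than in any numbered one. Psmc1 was at 54.3, 48.7, 61.8 and 68.6 FPKM against 34.9 to 52.9 FPKM (median 40.2, log2 change 0.55, adjusted p = 0.00376). Psmc5 was at 49.4, 50.1, 51.2 and 60.4 FPKM against 35.4 to 52.1 FPKM (median 39.3, log2 change 0.41, adjusted p = 0.0282). Psmc4 was at 52.8, 47.8, 55.3 and 57.8 FPKM against 36.1 to 52.2 FPKM (median 40.2, log2 change 0.44, adjusted p = 0.036). For these 3 genes the ranges overlap, and the call was lost in 14 of 20 alternative fits for Psmc4 (adjusted p up to 0.179) and in 13 for Psmc5 (up to 0.191). Psmd1, a large scaffold subunit of the base, was at 34.2, 33.9, 37.7 and 43.3 FPKM against 26.1 to 33.8 FPKM (median 28.3, log2 change 0.43, adjusted p = 0.00468).

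**Figure D3:**
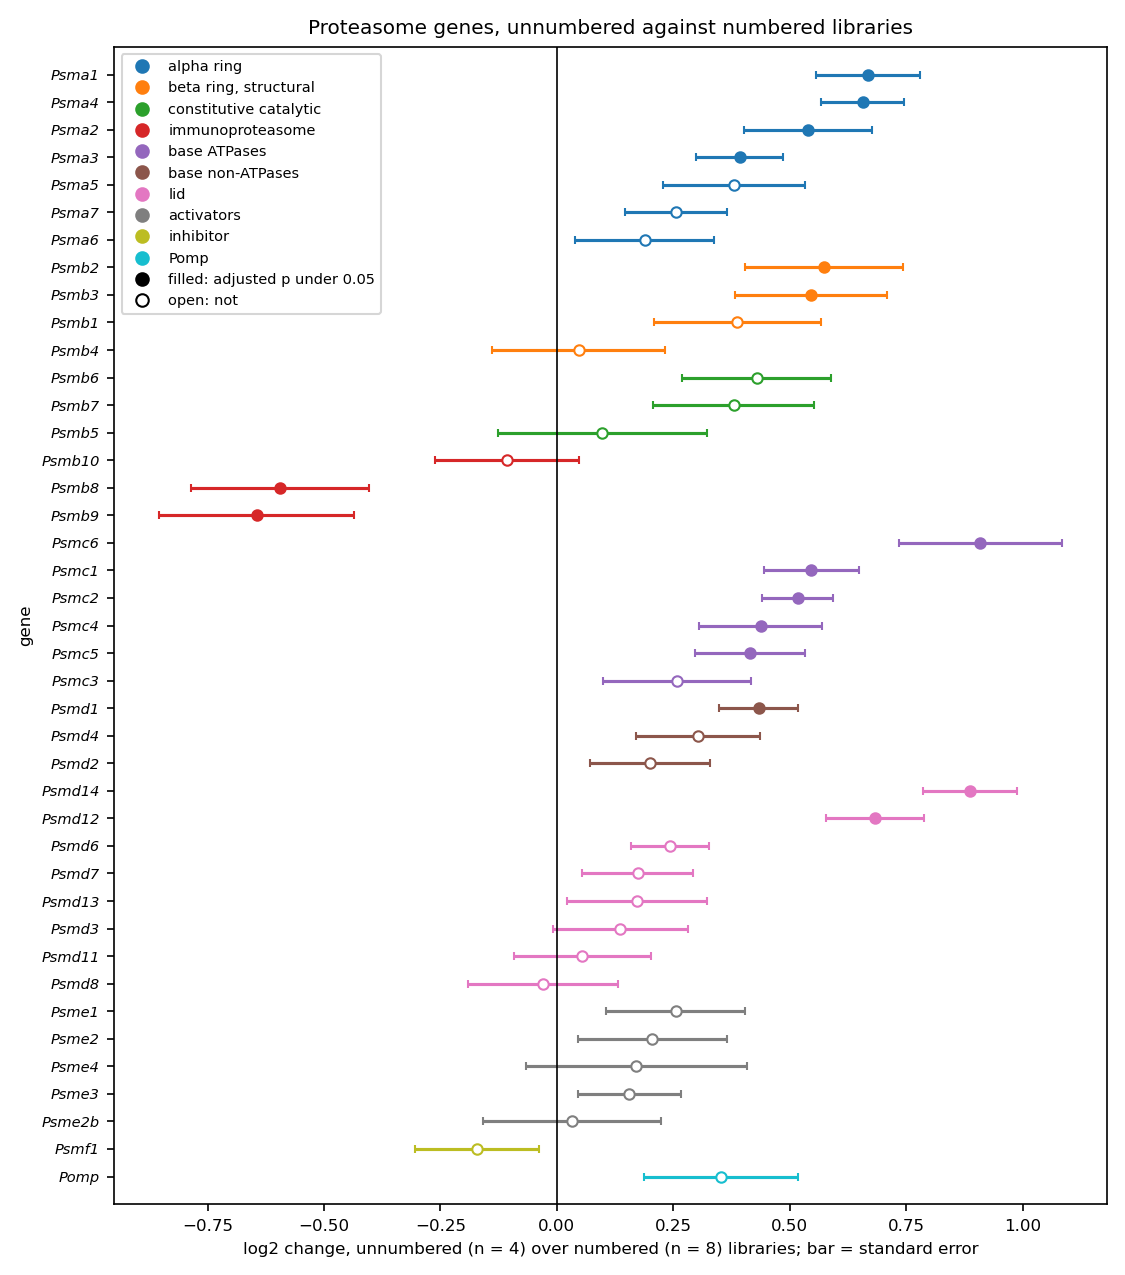
Log2 change of each tested proteasome gene in the 4 unnumbered over the 8 numbered libraries, with its standard error, coloured by role. Filled points are past an adjusted p of 0.05 in edgeR. They are 14 subunits of the standard proteasome to the right of 0, led by Psmc6 at 0.91 and Psmd14 at 0.89, and Psmb9 and Psmb8 at -0.64 and -0.59.

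The immunoproteasome genes went the other way. Psmb8 (chr17:34197721-34201454, plus strand) was at 20.2, 20.6, 30.2 and 31.7 FPKM in the unnumbered SiO2, DNP-HSA+SiO2, DNP-HSA and blank libraries against 26.0 to 54.6 FPKM (median 40.7) in the numbered libraries. The mean was 25.7 ± 6.11 FPKM (SD, n = 4) against 40.4 ± 9.71 FPKM (SD, n = 8), with overlapping ranges and a log2 change of -0.59 (adjusted p = 0.0455 from edgeR, standard error 0.191). Psmb9 (chr17:34181987-34187764, minus strand) was at 10.6, 11.7, 11.6 and 15.6 FPKM against 13.8 to 31.4 FPKM (median 19.2), a log2 change of -0.64 (adjusted p = 0.0469, standard error 0.209). Both calls are near the threshold: Psmb8 was no longer called in 12 of 20 alternative fits (adjusted p 0.0143 to 0.130) and Psmb9 in 9 of 20 (0.0136 to 0.144), with the same direction in all of them. Psmb10 was at 8.54, 8.80, 10.7 and 12.6 FPKM against 8.64 to 16.0 FPKM (median 11.5, log2 change -0.11, adjusted p = 0.649). The constitutive partners had positive values that were not called, 0.10 for Psmb5 (adjusted p = 0.786), 0.43 for Psmb6 (0.0753) and 0.38 for Psmb7 (0.137).

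The shares of the pairs separate the libraries more clearly than the single genes. Psmb8 made up 37.6%, 39.9%, 44.2% and 43.9% of the pair with Psmb5 in the unnumbered SiO2, DNP-HSA+SiO2, DNP-HSA and blank libraries, against 46.4% to 60.0% (median 53.7%) in the numbered libraries. The mean share was 41.4% ± 3.22 (SD, n = 4) against 54.1% ± 4.82 (SD, n = 8) (difference -12.7 percentage points). Psmb9 made up 12.9%, 15.8%, 13.1% and 16.8% of the pair with Psmb6, against 22.3% to 32.1% (median 26.4%), a mean of 14.6% ± 1.95 against 26.8% ± 3.71 (difference -12.1 percentage points). Neither share overlapped between the unnumbered and numbered libraries, and for each the exact two-sided permutation test gave p = 0.00404, the smallest it can give with 4 against 8 libraries, or 0.0303 after adjustment over the 15 share tests. For all 3 shares this test shuffles the 12 libraries freely and does not keep 1 unnumbered library in each group. Libraries of different groups also deviated together, so that its p-values may treat them as more independent than they are. With any 1 of the 4 unnumbered libraries left out both calls were lost, with an adjusted p of up to 0.0909 in this exact test. The smallest p it can give is larger with 3 against 8 libraries, so that this loss was fixed by the number of libraries. When 1 library was left out, the difference ran from -13.8 to -11.4 percentage points for Psmb8 and from -12.9 to -11.4 for Psmb9. Psmb10 made up 11.7%, 13.4%, 15.2% and 17.5% of the pair with Psmb7, against 15.8% to 25.2% (median 18.5%), where the blank library overlaps (exact p = 0.00808, adjusted p = 0.0404, no longer called in 13 of 14 alternatives).

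**Figure D4:**
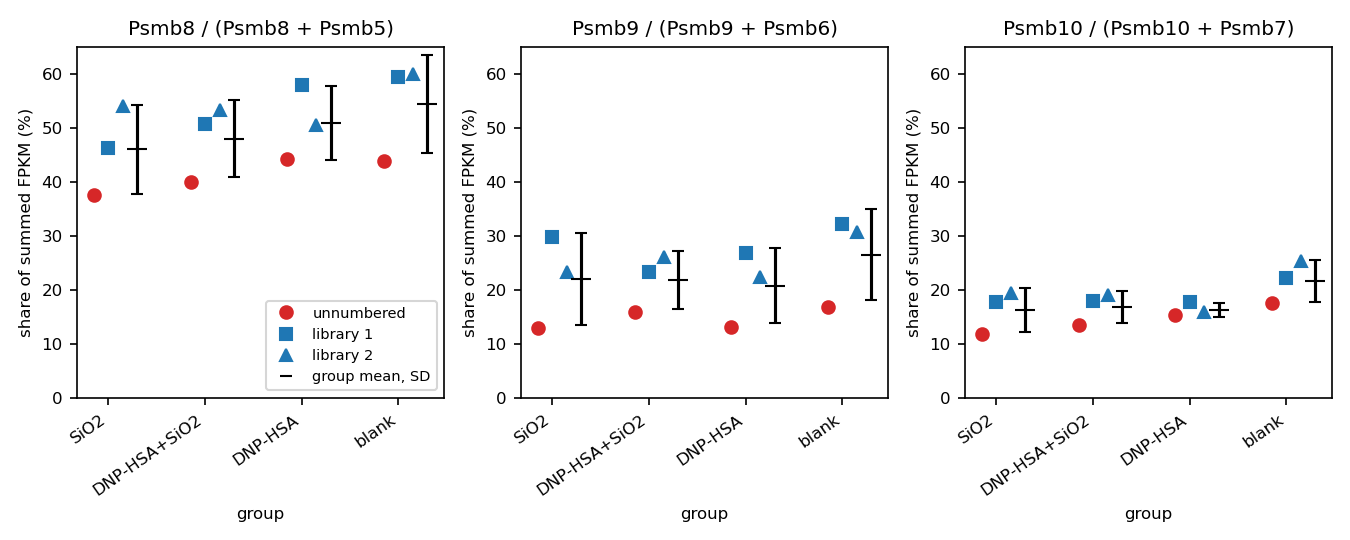
Share of summed FPKM (%) that each immunoproteasome subunit takes of its catalytic pair, by group. Red circles are unnumbered libraries, blue squares and triangles are libraries 1 and 2, and the black bar is the group mean with its SD. For Psmb8 and Psmb9 the red circles, at 37.6% to 44.2% and 12.9% to 16.8%, are below every blue point.

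Across the 12 libraries, the TMM-scaled levels of the 31 standard subunits varied together with a median pairwise Pearson r of 0.77, those of the 3 immunoproteasome subunits with 0.75, and the median r between the groups was -0.06. That last median covers pairs of either sign, such as Psmb8 with Psmc6 at -0.82 and with Psmb5 at 0.42, and Psmb10 with Psmb4 at 0.61. The 12 points share library preparation and depth, so these values are a description. Genes of other steps were read beside the members. Of 12 tested genes of MHC class I antigen processing, 3 fell in the unnumbered libraries and 1, Erap1, rose (12.9% and 12.1% of all genes, as above). The 3 that fell, named here after their values were seen, were Tap2, a subunit of the peptide transporter (37.9 to 70.0 FPKM against 82.7 to 126.9 FPKM, log2 change -1.04, adjusted p = 0.000492), Tapbp, its bridge to MHC class I (log2 change -1.08, adjusted p = 0.0025), and the MHC class I heavy chain H2-D1 (log2 change -0.50, adjusted p = 0.017). Several of the genes that fell, Psmb8, Psmb9 and Tap2 among them, lie in the MHC region, but not every gene there was called. Tap1, on the same list, has exons in the 250 bases before the start of Psmb9 and was not called. Its mean was 13.1 ± 5.32 FPKM (SD, n = 4) in the unnumbered and 15.9 ± 4.57 FPKM (SD, n = 8) in the numbered libraries, with overlapping ranges. H2-K1, from this list, was not called either, at a mean of 96.6 against 113.1 FPKM. Lyz2, which encodes the lysozyme of myeloid cells, fell. It was at 3.04 to 3.71 FPKM in the unnumbered and 17.9 to 87.8 FPKM in the numbered libraries (log2 change -3.74, adjusted p = 0.000634). Among the numbered libraries, Psmb8 was at 45.7, 49.8, 44.3 and 54.6 FPKM in SiO2 1, DNP-HSA+SiO2 2, DNP-HSA 2 and blank 1, where Lyz2 was at 64.8, 87.8, 60.1 and 74.6 FPKM. In SiO2 2, DNP-HSA+SiO2 1, DNP-HSA 1 and blank 2, Psmb8 was at 32.6, 26.0, 33.5 and 37.1 FPKM and Lyz2 at 34.0, 17.9, 30.8 and 25.0 FPKM. The constitutive partner Psmb5 was also higher in the first 4 of these libraries, at 52.9, 43.5, 43.3 and 37.3 FPKM against 27.7, 25.2, 24.3 and 24.8 FPKM, as was the sum of all members. In the same order, the Psmb8 share of its pair was 46.4%, 53.4%, 50.5% and 59.4% against 54.1%, 50.7%, 58.0% and 60.0%. The Psmb9 share was 29.7%, 26.1%, 22.3% and 32.1% against 23.4%, 23.3%, 26.7% and 30.7%. The part of other cells in the immunoproteasome levels was not tested.

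Of the 13 deubiquitinases, ligases and shuttle factors that dock on the proteasome, 4 rose in the unnumbered libraries and 1 fell, where 12.1% of all genes rose and 12.9% fell. Named after their values were seen, Uchl5 and Usp14, which encode the deubiquitinases bound to the regulatory cap, had log2 changes of 1.10 (adjusted p = 3.12e-05) and 0.56 (adjusted p = 0.00356), and Ubqln2, a shuttle factor, fell (log2 change -0.90, adjusted p = 0.00293). Of 7 assembly chaperones, 1 rose, Psmg2, at 0.44 (adjusted p = 0.0349), which is near the share of all genes. Of the 5 regulators of proteasome gene transcription and the 6 genes of polyubiquitin and ubiquitin activation, none was called (3 and 1 at an unadjusted p under 0.05, where 37.8% of all genes were), nor were Adrm1 and Sem1 (0). In the treatment comparisons edgeR called 0 genes of these lists. In DNP-HSA+SiO2 against blank, where 12% of all genes had an unadjusted p under 0.05, so did 1 of 7 assembly chaperones, Psmd5 (log2 change 0.49). Of the 13 docking factors 2 did, Txnl1 (0.55) and Zfand5 (1.28). Of the 12 genes of MHC class I antigen processing 1 did, Irf1 (-0.97), a transcription factor of the interferon response. Of the 6 genes of polyubiquitin and ubiquitin activation 2 did, and of the 5 regulators 0 did, nor did Adrm1 and Sem1. In SiO2 against blank (8.03% of all genes) 1 of the 13 docking factors, Zfand2a (0.75), and 2 of the 6 polyubiquitin and activation genes did. In DNP-HSA against blank (7.38%) 2 of these 6 did. Ubb, a polyubiquitin gene, was past this threshold in each comparison with blank. Ubb was at 1923, 1682 and 1904 FPKM in DNP-HSA+SiO2 against 882, 1268 and 1043 FPKM in blank, a log2 change of 1.14 (adjusted p = 0.117).

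The region before the start site was read for the 35 tested members found in the RefSeq promoter table (GRCm38.p6, 32851 promoters of 27025 genes), over 250 bases before the start and on both strands. The core of the antioxidant response element, TGACNNNGC, which the proteasome regulator Nfe2l1 can bind, was in 4 of 35 members (11.4%) and in 11.5% of all genes in the table. A CCAAT box, CCAAT, was in 12 of 35 members (34.3%, all genes 37.5%), the core of an interferon-stimulated response element, GAAANNGAA, in 2 (5.71%, all genes 8.18%), and a STAT core, TTCNNNGAA, in 1, Psmb8 (2.86%, all genes 8.13%). Each share of the members was at or below that of all genes, and a match is a description of the letters and not a site. The windows of Psmb8 and Psmb9 lay wholly inside annotated exons and are not shown. Those of Psmd14 (chr2:61711444-61711693, plus strand) and Psma1 (chr7:114276119-114276366, minus strand) are shown as members that rose in all alternative fits of the unnumbered libraries and whose windows, without the last 2 bases for Psma1, hold no annotated exon. Capitals mark CCAAT or its reverse, ATTGG.
Psmd14: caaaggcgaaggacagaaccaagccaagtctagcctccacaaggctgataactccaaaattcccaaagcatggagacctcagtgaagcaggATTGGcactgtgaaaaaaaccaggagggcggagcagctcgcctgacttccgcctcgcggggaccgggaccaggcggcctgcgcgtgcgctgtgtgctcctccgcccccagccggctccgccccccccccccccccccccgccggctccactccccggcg
Psma1: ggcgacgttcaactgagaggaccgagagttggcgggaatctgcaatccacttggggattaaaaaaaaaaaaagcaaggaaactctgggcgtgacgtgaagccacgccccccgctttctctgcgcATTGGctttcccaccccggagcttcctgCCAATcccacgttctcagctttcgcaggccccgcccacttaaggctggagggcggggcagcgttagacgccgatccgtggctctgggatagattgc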

How the data were processed

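Poly(A) RNA of 12 BMMC libraries was sequenced in paired-end reads after a dUTP (stranded) preparation. The submitters' processing notes list edgeR, DESeq2, StringTie 1.3.4d, HISAT2 2.0.4 and cutadapt 1.9. Their roles and the genome build are not given in the sources used here. The authors deposited, for 84846 isoforms, an FPKM value per isoform and library, scaled for isoform length and library by the authors. They also deposited an estimated count per isoform and library, not normalized between libraries, which carries less precision than single reads would. All 24 value columns were used. FPKM and estimated counts were summed per gene identifier. Summing includes isoforms that are not protein coding: protein-coding isoforms held 81.0% to 91.0% of the members' FPKM per library, so that retained introns and other non-coding isoforms enter each level.

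The 12862 genes that reached 1 FPKM in 3 or more of the 12 libraries were tested on the estimated counts, whole numbers as deposited, with edgeR 4.0.16 in R 4.3.3 (quasi-likelihood F-test, TMM scaling, trended dispersion, robust), all libraries in one model, adjusted by Benjamini-Hochberg. TMM factors were 0.808 to 1.22 and highest in the blank group, so that log2 changes and FPKM can differ in direction. Standard errors are the log2 change divided by the square root of F. The unnumbered libraries were compared in a second model with treatment as covariate. Shares of catalytic pairs were compared by exact two-sided permutation tests (SciPy 1.17.1). Alternatives were RLE size factors, library totals, DESeq2 1.42.0, limma 3.58.1 on log2(FPKM + 1) and log2(FPKM + 0.1), no filter, counts divided by 4, a replicate block, leaving out the 4 unnumbered libraries and leaving out each library in turn. Protein-coding isoforms alone were added after seeing the data. The scripts were tested on simulated data.

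As a check of pairing by number, deviations from group means were correlated across genes. It was 0.576, 0.599 and 0.581 (unnumbered, 1 and 2) for SiO2 and blank and 0.462, 0.573 and 0.297 for DNP-HSA+SiO2 and DNP-HSA, so that these were also fitted with a replicate block. It was 0.675, -0.112 and -0.0973 for DNP-HSA and blank and 0.572, -0.113 and -0.034 for DNP-HSA+SiO2 and blank, where equal numbers do not pair. Unequal numbers did deviate together there, at 0.538 for DNP-HSA 2 and blank 1, 0.538 for DNP-HSA 1 and blank 2, 0.449 for DNP-HSA+SiO2 2 and blank 1 and 0.534 for DNP-HSA+SiO2 1 and blank 2. No label gives this crossing and it was not fitted, so that the block over all 12 libraries, by equal numbers, is no paired test of the DNP-HSA groups against blank. The members, gene lists and tests were chosen with earlier results of these data known. Values in every library, or for the 8 numbered libraries their range and median, were given for members called in any comparison, the 6 catalytic subunits, the 3 largest log2 changes of each treatment comparison and the highest and lowest member of each role. Other lists were given as counts with up to 4 named genes. Some genes that meet this rule are not reported here.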

Additional observations from a re-analysis of the deposited data

Results flagged for a closer look

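Of 88 sets of libraries screened, 2 had a library far from the others by Dixon's criterion, where chance gives about 1 in 20. Psmc5 was at 60.4 FPKM in the unnumbered blank library and at 49.4 to 51.2 FPKM in the other unnumbered libraries. Psmd1 was at 33.8 FPKM in blank 1 and at 26.1 to 29.2 FPKM in the other numbered libraries.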

How the results depend on the processing

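In the 5 treatment tests 0 members were called under any of the alternatives run, DESeq2, limma and the replicate block among them, while the number of all genes called ranged from 0 to 278 in SiO2 against blank (8 as reported), 7 to 592 in DNP-HSA+SiO2 against blank (74), 2 to 309 in DNP-HSA against blank (28), 0 to 4 in DNP-HSA+SiO2 against DNP-HSA (0) and 0 to 36 in the interaction (3), with the highest counts from DESeq2. The median log2 change of the members was -0.11 with library totals, -0.11 with limma on log2(FPKM + 1) and -0.11 on log2(FPKM + 0.1) in SiO2 against blank, and -0.24, -0.24 and -0.25 in DNP-HSA+SiO2 against blank. The replicate block over all 12 libraries called 0 members and 5, 101, 66, 0 and 0 of all genes in the same order of tests, and the replicate block within pairs called 0 members and 4, 0 and 0 of all genes in SiO2 against blank, DNP-HSA+SiO2 against DNP-HSA and the interaction. Beyond the values in the report the block changed no call of a member. In the unnumbered libraries, 8 members rose without the FPKM filter, and between 8 and 18 rose when 1 library was left out. Those that fell numbered 1 with library totals, 0 without the filter, 0 with protein-coding isoforms and 0 to 2 when 1 library was left out. Psmd14, Psma4, Psmc2, Psmd12, Psma1, Psmc1, Psmc6 and Psmd1 kept their call in all 20 alternatives. The call was lost in 14 for Psmc4, 13 for Psmb3 and Psmc5, 7 for Psmb2, 5 for Psma3 and 4 for Psma2. The difference in share, unnumbered minus numbered, was -13.8 to -11.4 percentage points for Psmb8, -12.9 to -11.4 for Psmb9 and -5.90 to -3.98 for Psmb10 when 1 library was left out, where 3 against 8 libraries limit the p. For Psmb10 it was -4.78 with estimated counts and -4.25 with protein-coding isoforms, not past the threshold. The sign of Psmc6 turned in DNP-HSA+SiO2 against DNP-HSA (-0.093 without the 4 unnumbered libraries). The cause of these shifts was not tested. Leaving out 1 library also turned uncalled values: Psmc6 ran from -0.22 to 0.61 in that comparison, from -0.0099 to 0.82 in DNP-HSA+SiO2 against blank and from -0.0046 to 0.80 in SiO2 against blank, and Psmb5 from -0.0072 to 0.21 in unnumbered against numbered libraries. The share differences in DNP-HSA+SiO2 against DNP-HSA ran from -6.28 to 1.12 percentage points for Psmb8, -2.78 to 4.05 for Psmb9 and -0.61 to 2.21 for Psmb10, which was -0.29 with protein-coding isoforms, and the Psmb9 share in SiO2 against blank from -9.40 to 0.0058. With 3 libraries a group the members' median standard error was 0.247 in the fit without a block, which limits what a treatment comparison can detect. In SiO2 against blank the members' standard errors were 0.161 to 0.445 in that fit. With the replicate block within pairs they were 0.0906 to 0.241.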
